A study of Homo sapiens with 6 samples.

Results

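The 10 genes described here encode the choline transporter-like proteins SLC44A1 to SLC44A5 and the enzymes that turn choline into phosphatidylcholine: the choline kinases CHKA and CHKB, the CDP-choline-forming enzyme PCYT1A, and the transferases CHPT1 and CEPT1. They are 10 of the 39554 genes in the deposited count table, chosen by name and function. The group was put together with earlier results of the same siSOWAHA and siNC libraries in view, among which SLC44A2 stood high and CHKB low, so the members' differences are given as a description with no p-value. Of the members, 9 were found by gene name and 1, SLC44A4, by its Entrez gene ID, because its row carries the name of a copy on an alternate scaffold. All 10 passed the filter on low counts.

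The cells were SW620, a long-established human line derived from a lymph node metastasis of colorectal cancer. Cells were transfected for 72 h with a small interfering RNA (siRNA) against SOWAHA (siSOWAHA, 3 libraries) or with a control siRNA (siNC, 3 libraries), and poly(A) RNA was sequenced in a strand-specific library. Both groups had the same transfection reagent and medium, all libraries are of 1 cell line, and the labels tell neither whether replicates were grown separately nor whether 1 siRNA served for all siSOWAHA libraries. The p-values below therefore measure only library-to-library spread, which may be technical. SOWAHA encodes an ankyrin repeat protein, and the series asks how it bears on metabolism in colorectal cancer.

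Choline is a charged molecule that needs carriers to cross membranes. In the CDP-choline route, also named the Kennedy pathway, a choline kinase makes phosphocholine, a CTP-using transferase makes CDP-choline in the step that usually limits the rate, and a transferase joins the phosphocholine to diacylglycerol. The product, phosphatidylcholine, is the most abundant phospholipid of most mammalian membranes, and raised choline kinase and phosphocholine levels are a known feature of many tumours.

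Total counts were 49937395 to 55082095 in the siSOWAHA libraries and 53281242 to 59474396 in the siNC libraries. SOWAHA itself stood at 7.52, 6.85 and 8.96 CPM (gene counts scaled to library size with TMM factors) in siSOWAHA libraries, against 32.3, 39.4 and 33.8 CPM in siNC libraries, so that 22.1% of the siNC level was left (log2 fold change -2.18, SE 0.105, adjusted p = 3.68e-09, edgeR's quasi-likelihood test). Of 17693 genes tested, 16.9% passed that test at an adjusted p under 0.05. Summed CPM of the 10 colorectal epithelial markers listed was 8882 to 8992 in siSOWAHA libraries and 9522 to 9827 in siNC libraries. KRT8 (log2 fold change -0.12) made up most of that sum in both groups, and CDX1 had 0 counts in all libraries. Of 9 tested markers, 5 passed as lower (KRT8, KRT19, CDH1, CDX2 and CDH17), beside 7.77% of all genes tested. EPCAM (log2 fold change 0), KRT18 (-0.04), VIL1 (-0.06) and KRT20 (0.07) did not pass. Summed fibroblast markers were at 80.0 to 92.9 CPM in siSOWAHA libraries and 70.1 to 76.95 CPM in siNC libraries, mostly LUM, which was higher at 76.4 CPM in siSOWAHA libraries against 61.1 CPM in siNC libraries. COL1A1 (6.965 CPM in siSOWAHA libraries, 9.18 CPM in siNC libraries) and PDGFRB (1.55 CPM in siSOWAHA libraries, 2.13 CPM in siNC libraries) lay the other way with ranges that did not overlap, and did not pass the test. Leukocyte markers summed to 11.6 to 13.7 CPM in siSOWAHA libraries and 13.2 to 14.6 CPM in siNC libraries with PTPRC and CD3E at 0, and endothelial markers to at most 2.88 CPM in siSOWAHA libraries and 2.73 CPM in siNC libraries, with CDH5 at 0. The part of these marker differences in the results below was not tested, and in bulk RNA fewer cells of a type and less RNA per cell cannot be told apart.

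Of the 10 members, 6 passed the test's threshold, beside 16.9% of all genes tested. SLC44A1, SLC44A2, PCYT1A and CHPT1 had higher counts in siSOWAHA libraries (4 of 10, beside 9.12%), and CHKA and CHKB had lower counts (2 of 10, beside 7.77%). In 7 members the ranges of the groups did not overlap, beside 33.0%. Nothing is read from these counts, because the same contrast was in view when the genes were chosen. The median log2 fold change over the members was 0.06, beside -0.01 over all genes tested, and the median of its size was 0.19, beside 0.15 over all genes tested. SLC44A2 and CHKB differed by far more than the other members, whose log2 fold changes lay between -0.23 and 0.23. The plots of the members by library and of their log2 fold changes show both.

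**Figure D1:**
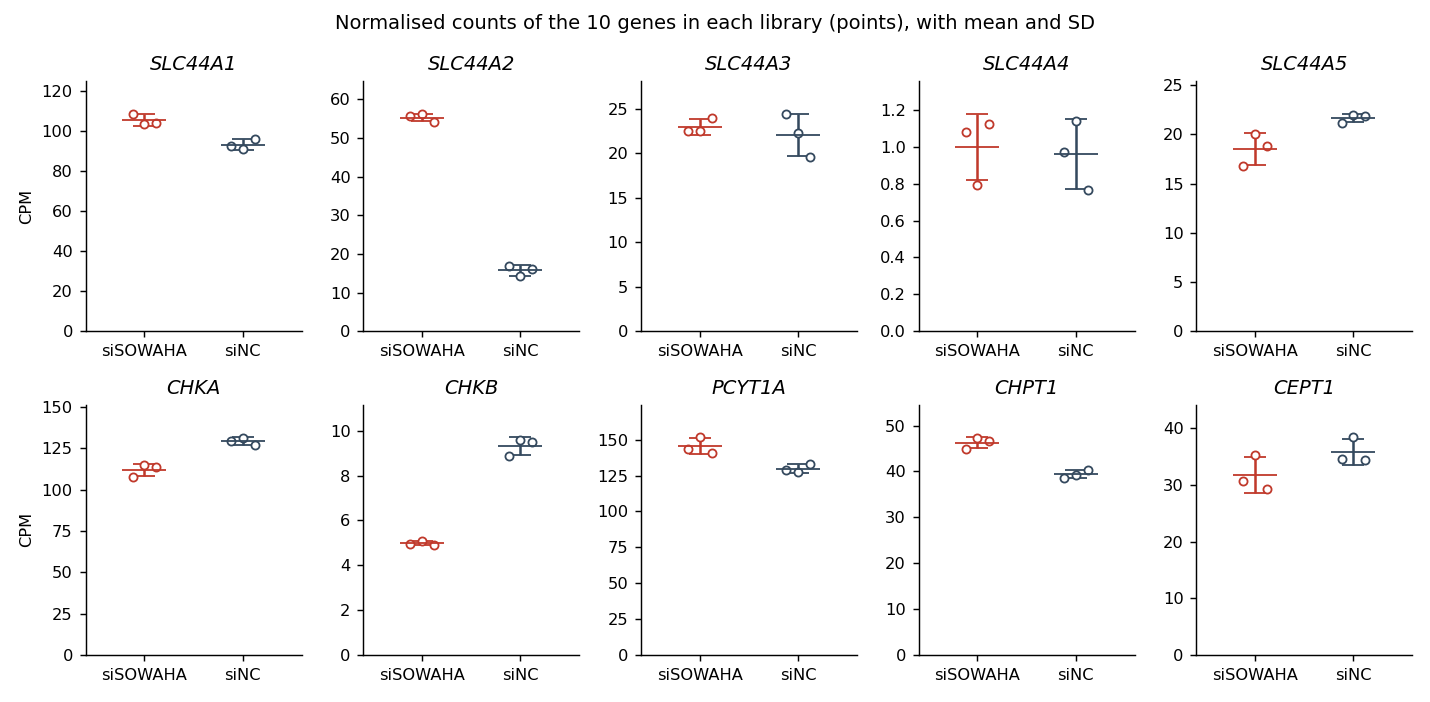
CPM (scaled with TMM factors) of the 10 members in each library, siSOWAHA on the left and siNC on the right in every panel; points are the 3 libraries of a group and the bar is their mean ± SD. SLC44A2 lies at 54.2 to 56.1 CPM in siSOWAHA libraries and 14.2 to 17.0 CPM in siNC libraries, and CHKB at 4.93 to 5.10 CPM in siSOWAHA libraries and 8.87 to 9.59 CPM in siNC libraries.

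SLC44A2 (Entrez gene 57153, GRCh38 chromosome 19, 10602455 to 10644557, plus strand) encodes a choline transporter-like protein that carries the human neutrophil antigen 3. It had 55.6, 56.1 and 54.2 CPM in siSOWAHA libraries, against 17.0, 14.2 and 16.0 CPM in siNC libraries. Every siSOWAHA library stood far above every siNC library. The fold change was 3.52 (log2 fold change 1.81, SE 0.0685), the 33rd highest of the 17693 genes tested. Its RefSeq annotation has 2 transcription starts, and the gene's count adds up transcripts of both, so the start used by the additional transcripts cannot be told from these data.

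The windows around both starts of SLC44A2 are shown because they belong to the member with the largest difference. They run 5′ to 3′ on the plus strand from 250 bases before to 50 bases after the annotated start (RefSeq, GRCh38.p14), at chr19:10602205-10602504 and chr19:10625303-10625602, with the first 50 transcribed bases in capitals.
SLC44A2 start 1: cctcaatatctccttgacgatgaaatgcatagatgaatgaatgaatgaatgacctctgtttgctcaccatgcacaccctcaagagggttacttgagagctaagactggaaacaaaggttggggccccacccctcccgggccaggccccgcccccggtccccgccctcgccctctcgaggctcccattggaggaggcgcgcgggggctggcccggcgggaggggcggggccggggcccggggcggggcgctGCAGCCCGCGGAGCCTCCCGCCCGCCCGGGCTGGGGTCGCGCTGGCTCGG
SLC44A2 start 2: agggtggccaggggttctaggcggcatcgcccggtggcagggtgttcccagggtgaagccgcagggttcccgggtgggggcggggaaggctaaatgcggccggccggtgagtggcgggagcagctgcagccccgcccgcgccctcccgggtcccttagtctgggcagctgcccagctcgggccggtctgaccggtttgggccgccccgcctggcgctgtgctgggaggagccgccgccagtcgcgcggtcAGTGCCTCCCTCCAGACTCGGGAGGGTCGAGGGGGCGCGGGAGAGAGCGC

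Both windows are rich in G and C, at 69% for the upstream start and 75% for the downstream start, beside a median of 58.7% over the 35116 promoter windows of this length. The letters GGGCGG, searched on both strands, occur 6 times at the upstream start and 3 times at the downstream start, and 45% of all windows hold them. CCAAT occurs once at the upstream start and 34.6% of all windows hold it. TATAAA occurs in neither, and 11.5% of all windows hold it. No match shares bases with a match of another motif. These are matches of letters and not sites.

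The other carriers differed little. SLC44A1 (chromosome 9, 105244608 to 105439775, plus strand), a choline carrier of the plasma membrane and mitochondria, had 108.7, 103.3 and 104.2 CPM in siSOWAHA libraries and 92.4, 91.1 and 96.2 CPM in siNC libraries. Its groups did not overlap, with a log2 fold change of 0.18 (SE 0.0414). SLC44A3 (chromosome 1, 94820351 to 94895247, plus strand) had 22.5, 22.4 and 23.95 CPM in siSOWAHA libraries and 24.3, 22.2 and 19.6 CPM in siNC libraries. Those ranges overlapped. SLC44A5 (chromosome 1, 75202129 to 75724261, minus strand) had 16.8, 20.03 and 18.8 CPM in siSOWAHA libraries and 21.2, 22.0 and 21.8 CPM in siNC libraries. All siSOWAHA libraries lay below all siNC libraries, yet the gene did not pass the threshold (log2 fold change -0.23, SE 0.0815). SLC44A4, known as a carrier of thiamine pyrophosphate in the colon, was close to absent at 0.763 to 1.14 CPM over all 6 libraries, which is 43 to 68 counts per library. At that depth its log2 fold change of 0.06 had an SE of 0.32, and a moderate difference was not detectable.

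**Figure D2:**
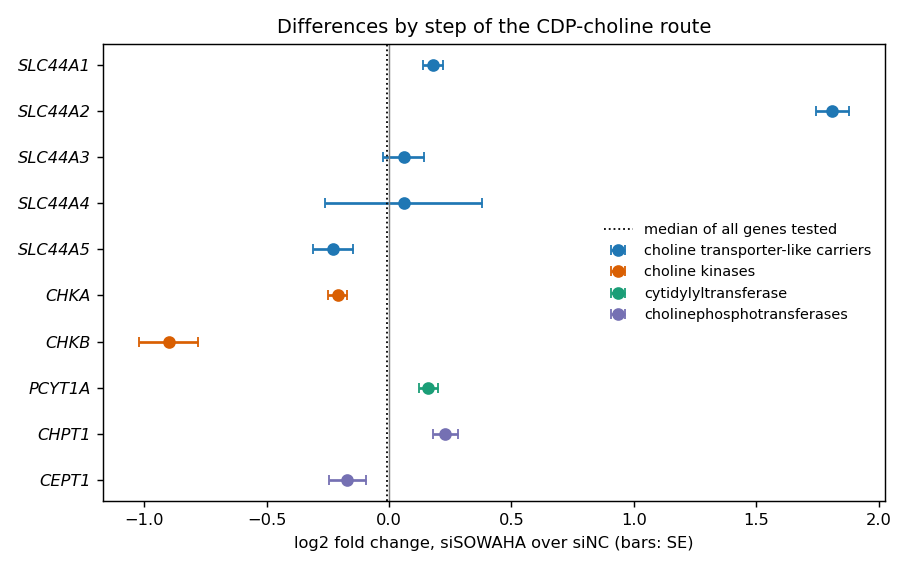
Log2 fold change, siSOWAHA over siNC, of each member by role; points are edgeR estimates coloured by role, bars are ± 1 SE, and the dotted line is the median of all genes tested. SLC44A2 stands at 1.81 and CHKB at -0.90, and the SE of SLC44A4 (0.32) is the widest.

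CHKA (chromosome 11, 68052859 to 68121389, minus strand), the choline kinase that is often raised in tumours, had 107.9, 114.9 and 113.6 CPM in siSOWAHA libraries and 129.6, 131.6 and 126.9 CPM in siNC libraries. The groups did not overlap, and the log2 fold change was -0.21 (SE 0.0388). CHKB (Entrez gene 1120, chromosome 22, 50578963 to 50582849, minus strand) encodes the second choline kinase, whose loss causes a muscular dystrophy in people. It had 4.96, 5.10 and 4.93 CPM in siSOWAHA libraries, against 8.87, 9.59 and 9.50 CPM in siNC libraries. Its mean in siSOWAHA libraries was 53.6% of that in siNC libraries (log2 fold change -0.90, SE 0.122), the 431st lowest of the 17693 genes tested. The counts given to both choline kinase genes were thus lower in siSOWAHA libraries.

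The CHKB value has to be read beside its neighbours, because CHKB lies wholly within the annotated readthrough gene CHKB-CPT1B (50568861 to 50582999, same strand). Readthrough transcripts of this locus start near CHKB and run on into CPT1B, the muscle form of carnitine palmitoyltransferase 1, which brings long-chain fatty acids into mitochondria, and RefSeq lists CHKB-CPT1B as a non-coding RNA. The CHKB window is shown because it holds the annotated starts of both CHKB and CHKB-CPT1B. It reads 5′ to 3′ on the minus strand (RefSeq, GRCh38.p14, chr22:50582800-50583099), and the capitals mark the 150 bases that belong to CHKB-CPT1B but lie before the annotated start of CHKB.
CHKB start 1: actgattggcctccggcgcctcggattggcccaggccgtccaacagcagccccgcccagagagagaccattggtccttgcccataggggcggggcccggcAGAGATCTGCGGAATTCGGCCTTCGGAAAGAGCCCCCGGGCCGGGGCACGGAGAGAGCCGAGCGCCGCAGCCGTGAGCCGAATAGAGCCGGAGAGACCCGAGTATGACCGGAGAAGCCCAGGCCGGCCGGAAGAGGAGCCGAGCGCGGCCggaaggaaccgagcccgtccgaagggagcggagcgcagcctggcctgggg

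CHKB-CPT1B starts 150 bases before CHKB, and the divergent transcript CHKB-DT on the plus strand starts 27 bases beyond that. CCAAT occurs 3 times in the window and GGGCGG 2 times, with TATAAA absent and a G and C content of 70.7%. CHKB and the readthrough gene differed in opposite directions. CHKB-CPT1B had 12.3, 11.2 and 15.8 CPM in siSOWAHA libraries and 9.14, 7.36 and 8.97 CPM in siNC libraries, and it rose (log2 fold change 0.62, SE 0.133, adjusted p = 0.00444, range 0.000766 to 0.0393 over 16 alternatives). CPT1B had 13.0, 11.7 and 6.33 CPM in siSOWAHA libraries and 12.2, 16.9 and 17.5 CPM in siNC libraries, and did not pass (adjusted p = 0.307). CHKB-DT was near 1 CPM in both groups and did not pass either (adjusted p = 0.273).

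Added together, CHKB and CHKB-CPT1B stood at 17.2, 16.3 and 20.7 CPM in siSOWAHA libraries and 18.0, 17.0 and 18.5 CPM in siNC libraries. These sums overlapped, with means of 18.1 ± 2.32 CPM in siSOWAHA libraries and 17.8 ± 0.779 CPM in siNC libraries (SD, n = 3 each). CHKB took 28.0% ± 3.81 of the pair's counts in siSOWAHA libraries and 52.4% ± 3.76 in siNC libraries (SD, n = 3 each). The highest upper bound of an exact 95% binomial interval in a siSOWAHA library was 34.4%, and the lowest lower bound in a siNC library was 46.1%, bounds that cover counting error only. With CPT1B added, the 3 genes summed to 30.2, 28.0 and 27.0 CPM in siSOWAHA libraries and 30.2, 33.8 and 35.9 CPM in siNC libraries. How the authors' counting divides reads among overlapping genes is not given in the sources used here. Less CHKB transcript and another division of the locus's reads therefore cannot be told apart. No other member with coordinates in the authors' table overlaps a gene that passed the threshold, and SLC44A4, whose row is on an alternate scaffold, was not checked. TCIRG1 at CHKA, GNPTAB and SYCP3 at CHPT1, and DRAM2 at CEPT1 overlap and did not pass, and LOC112268038 at SLC44A1 was too low to be tested.

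**Figure D3:**
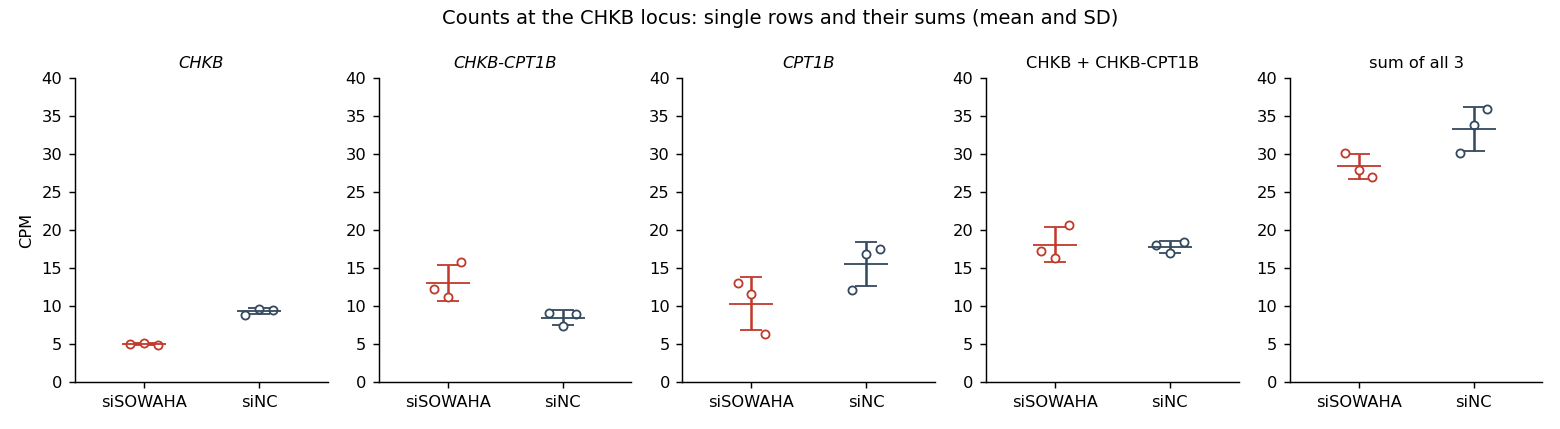
CPM of CHKB, CHKB-CPT1B, CPT1B, the sum of CHKB and CHKB-CPT1B, and the sum of all 3 in each library, siSOWAHA left of siNC in every panel; points are libraries and bars are means ± SD. CHKB is lower and CHKB-CPT1B higher in siSOWAHA libraries, while their sum overlaps between the groups.

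PCYT1A (chromosome 3, 196234368 to 196287726, minus strand), the enzyme of the rate-limiting step, had 143.7, 151.6 and 141.0 CPM in siSOWAHA libraries and 128.7, 127.3 and 133.2 CPM in siNC libraries, with no overlap (log2 fold change 0.16, SE 0.039). CHPT1 (chromosome 12, 101697640 to 101752038, plus strand), the cholinephosphotransferase of the Golgi, had 44.9, 47.2 and 46.6 CPM in siSOWAHA libraries and 38.7, 39.3 and 40.3 CPM in siNC libraries, also with no overlap (log2 fold change 0.23, SE 0.0509). CEPT1 (chromosome 1, 111139436 to 111185104, plus strand), which makes both phosphatidylcholine and phosphatidylethanolamine, had 30.7, 35.3 and 29.3 CPM in siSOWAHA libraries and 34.5, 38.4 and 34.4 CPM in siNC libraries. The CEPT1 ranges overlapped and the gene did not pass the threshold.

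Levels were compared between genes with the authors' FPKM values, which are scaled by length. In siSOWAHA libraries the order ran from PCYT1A (23.9 FPKM) through SLC44A2 (14.1), CHKA (11.2), CEPT1 (10.3), SLC44A1 (7.74), CHPT1 (5.997), SLC44A3 (5.82), CHKB (3.11) and SLC44A5 (1.62) to SLC44A4 (0.0456 FPKM). In siNC libraries it ran from PCYT1A (21.5 FPKM) through CHKA (13.1), CEPT1 (11.8), SLC44A1 (6.92), CHKB (5.88), SLC44A3 (5.65), CHPT1 (5.17), SLC44A2 (4.06) and SLC44A5 (1.91) to SLC44A4 (0.0446 FPKM). SLC44A2 thus held rank 2 in siSOWAHA libraries and rank 8 in siNC libraries, and CHKB rank 8 in siSOWAHA libraries and rank 5 in siNC libraries. Neighbours whose libraries overlapped were CHKA with CEPT1 and CHPT1 with SLC44A3 in siSOWAHA libraries, and CHKB with SLC44A3 and SLC44A3 with CHPT1 in siNC libraries. The order depends on the length used: the lengths behind the FPKM values were 3.93 times the longest GENCODE 29 coding transcript for CHKA, 3.83 times for CHPT1 and 8.24 times for SLC44A4, but 1.03 times for SLC44A2 and 0.971 times for CHKB. Scaled by the GENCODE lengths, CHKA ranked 1 and PCYT1A 2 in both groups, SLC44A2 ranked 4 in siSOWAHA libraries and 9 in siNC libraries, and CHKB ranked 9 in siSOWAHA libraries and 7 in siNC libraries.

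**Figure D4:**
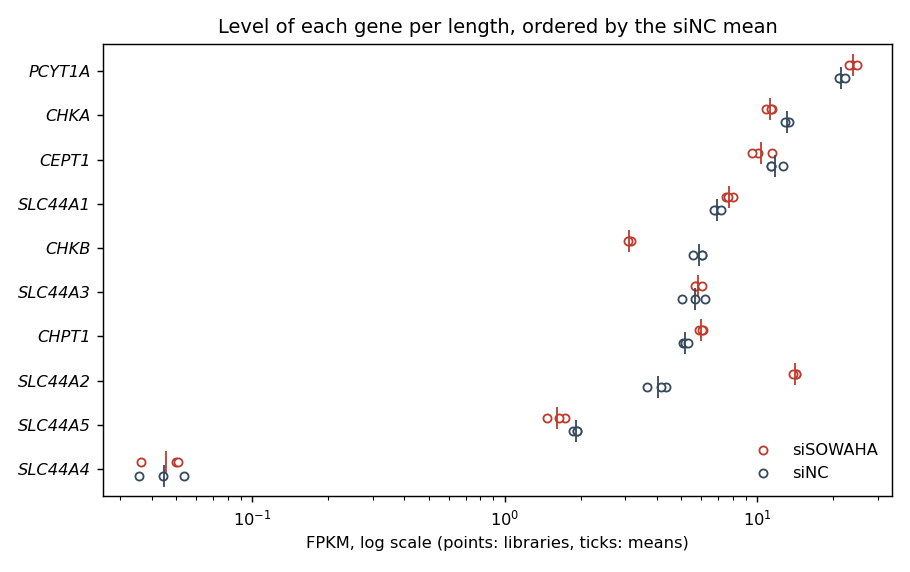
FPKM of the 10 members on a log axis, siSOWAHA above siNC for each gene; points are libraries, vertical ticks are means, and genes are in order of their siNC mean. SLC44A2 is at 14.1 FPKM in siSOWAHA libraries and 4.06 in siNC libraries, and SLC44A4 is at 0.0456 FPKM in siSOWAHA libraries and 0.0446 FPKM in siNC libraries.

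The carriers' summed level differed mainly through SLC44A2. SLC44A1, SLC44A2, SLC44A3 and SLC44A5 added up to 29.5, 29.2 and 29.2 FPKM in siSOWAHA libraries and 19.3, 18.0 and 18.3 FPKM in siNC libraries, a siSOWAHA mean that was 158% of the siNC mean. Without SLC44A2 the sums were 15.2 ± 0.209 FPKM in siSOWAHA libraries and 14.5 ± 0.397 FPKM in siNC libraries (SD, n = 3 each), close together although the ranges did not overlap. SLC44A2 made up 48.2% of the summed carrier level in siSOWAHA libraries and 21.9% in siNC libraries, while SLC44A1 made up 26.4% in siSOWAHA libraries and 37.4% in siNC libraries. The 2 kinases summed to 14.3 ± 0.314 FPKM in siSOWAHA libraries and 19.0 ± 0.345 FPKM in siNC libraries, and CHKB's share of them was 21.7% in siSOWAHA libraries and 31.0% in siNC libraries, a share that carries the doubt about its locus. CHPT1 and CEPT1 summed to 16.3 ± 1.01 FPKM in siSOWAHA libraries and 16.9 ± 0.728 FPKM in siNC libraries with overlapping ranges. CHPT1 was 36.8% of that sum in siSOWAHA libraries and 30.6% in siNC libraries. All these sums and shares depend on the lengths behind the FPKM values. Scaled by the GENCODE lengths, CHPT1 lay above CEPT1 in both groups. It had 23.1 against 14.1 CPM per kilobase in siSOWAHA libraries, and 19.7 against 15.9 in siNC libraries. On that scale CHKB had 3.05 beside 44.3 for CHKA in siSOWAHA libraries. In siNC libraries CHKB had 5.69 beside 51.1, in both groups a smaller part than by FPKM. For the carriers that scale gave SLC44A2 14.6, SLC44A1 10, SLC44A3 9.61 and SLC44A5 4.2 in siSOWAHA libraries. In siNC libraries it gave 4.16, 8.87, 9.23 and 4.92 in the same order. The part of SLC44A2 among these carriers was thus smaller than by FPKM in both groups, and their sum differed by a smaller factor. SLC44A4 was left out of the carrier sums.

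By the distance between log2 CPM profiles over the 6 libraries, each centred on its own mean, the genes most like SLC44A2 among 11301 genes that averaged 5 CPM or more over all 6 libraries were FXYD2 (root mean square distance 0.152), KIF19 (0.217) and FOXP2 (0.245). FXYD2, the gamma subunit of the sodium pump, averaged 17.2 ± 1.29 CPM in siSOWAHA libraries and 5.42 ± 0.317 CPM in siNC libraries. The genes most like CHKB were KRT15 (0.0231), SLC2A3 (0.0503) and CCND1 (0.0651). These distances mostly follow the difference between the groups, which was in view when SLC44A2 and CHKB were chosen. Log2 fold changes were 1.67 for FXYD2, 1.5 for KIF19 and 1.35 for FOXP2. They were -0.92 for KRT15, -0.86 for SLC2A3 and -0.86 for CCND1. Shared regulation was not tested. KIF19 (3.99 CPM) and FOXP2 (4.22 CPM) were below 5 CPM in siNC libraries, and KRT15 (4.41 CPM) and CHKB itself (4.996 CPM) in siSOWAHA libraries, so they met that floor through the group in which they were high. SLC2A3, a glucose carrier, averaged 90.7 ± 2.89 CPM in siSOWAHA libraries and 164.8 ± 13.8 CPM in siNC libraries, and CCND1, cyclin D1, 107.0 ± 5.23 CPM in siSOWAHA libraries and 194.2 ± 2.72 CPM in siNC libraries (SD, n = 3 each).

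The wider pathway was described with 8 lists of 68 other genes of choline and phospholipid metabolism, of which 60 were tested. Of these, 7 rose, 6 fell and 47 did not pass, so that 21.7% passed, beside 16.9% of all genes tested; the median log2 fold change was 0.03, beside -0.01. Among 5 tested carriers of choline or lysophosphatidylcholine, FLVCR1, a choline and heme carrier, rose (48.5 ± 1.10 CPM in siSOWAHA libraries, 41.7 ± 1.11 CPM in siNC libraries, log2 fold change 0.22, SE 0.0499, adjusted p = 0.0068), and the high-affinity choline carrier SLC5A7 had 0 counts in all libraries.

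The ethanolamine branch makes phosphatidylethanolamine by a parallel route, and its list also holds genes of serine exchange and methylation and PCYT1B, a relative of PCYT1A. Of the 9 tested genes of that list, ETNK1, an ethanolamine kinase, rose (log2 fold change 0.19, adjusted p = 0.000393), as did PTDSS1, which makes phosphatidylserine from phosphatidylcholine (0.17, adjusted p = 0.00222). PCYT2, the counterpart of PCYT1A in the ethanolamine branch, fell (-0.14, adjusted p = 0.0325), as did the second ethanolamine kinase ETNK2 (-0.42, adjusted p = 0.0445). Of 14 tested genes of diacylglycerol supply, the phosphatidate phosphatase LPIN2 rose (0.22, adjusted p = 0.00259), the acyltransferase GPAT3 fell (-0.23, adjusted p = 0.0441) and 12 did not pass. Among 11 tested genes of acyl chain remodelling, LYPLA1, a lysophospholipase and protein thioesterase, rose (0.32, adjusted p = 0.000105). LPCAT3, which adds polyunsaturated chains to lysophosphatidylcholine, rose as well (0.22, adjusted p = 0.0017), and the acyltransferase MBOAT1 fell (-0.33, adjusted p = 0.022).

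PLD1, which releases choline from phosphatidylcholine, fell and was the 1 of 6 tested breakdown genes to pass (6.70 ± 0.989 CPM in siSOWAHA libraries, 9.34 ± 1.86 CPM in siNC libraries, log2 fold change -0.48, adjusted p = 0.045). SGMS2, which moves phosphocholine from phosphatidylcholine to ceramide, rose and was the 1 of 6 sphingomyelin genes to pass (4.58, 5.82 and 6.13 CPM in siSOWAHA libraries, 3.06, 3.90 and 3.75 CPM in siNC libraries, log2 fold change 0.63, adjusted p = 0.02). None of 4 tested genes of choline oxidation and acetylcholine passed, and the mitochondrial choline dehydrogenase CHDH was at 114.2, 113.1 and 114.9 CPM in siSOWAHA libraries and 117.8, 118.7 and 117.2 CPM in siNC libraries. All 6 lower calls, but of the 7 higher calls SGMS2 alone, lost the threshold under at least 1 of 16 alternatives. All these p-values are edgeR's, adjusted over all genes tested.

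**Figure D5:**
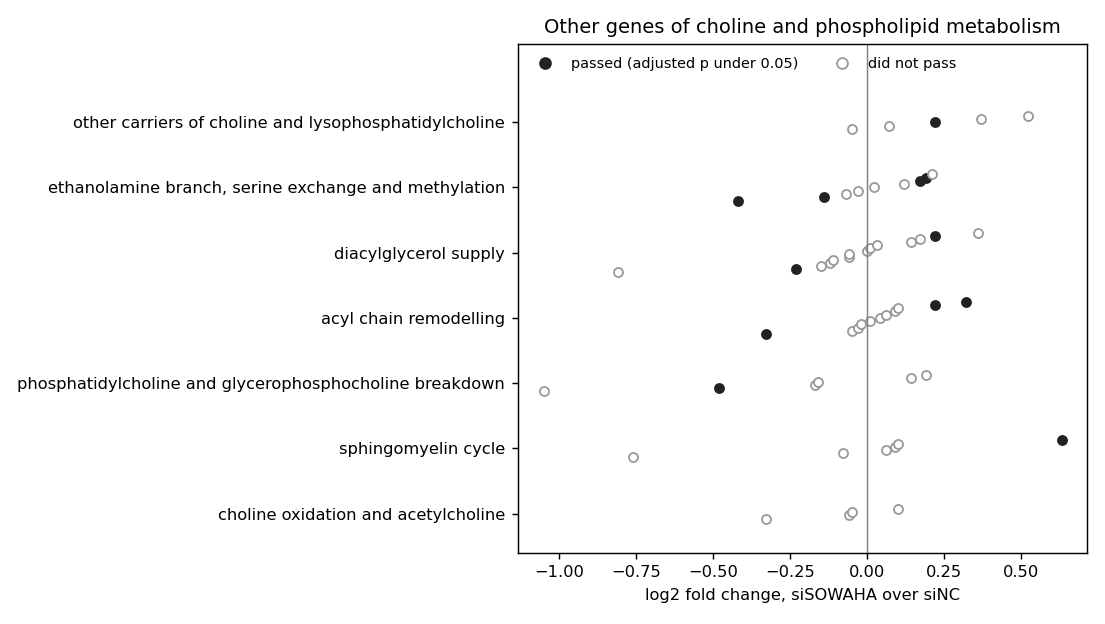
Log2 fold change, siSOWAHA over siNC, of the tested genes of 7 of the 8 lists, 1 point a gene; filled points passed at an adjusted p under 0.05. Filled points number 7 above 0 and 5 below, with PLD1 at -0.48 the lowest and SGMS2 at 0.63 the highest of them.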

How the data were processed

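Poly(A) RNA of 6 SW620 libraries was sequenced with paired reads, and the sample titles gave groups and replicate numbers, since the treatment label is the same for all. The submitters' processing notes name cutadapt 1.9, FastQC and the build GRCh38. Which aligner and counter were run, and with which strand setting, is not given in the sources used here. Raw counts were deposited by the authors for 39554 genes and, for 24901 of them, FPKM values beside identical counts. FPKM was used to compare levels between genes and for the sums and shares of carriers, kinases and transferases. No TMM factors were applied to it. A second test was limma-trend on log2(FPKM + 1).

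The test on the deposited counts was edgeR's two-sided quasi-likelihood test (edgeR 4.0.16 in R 4.3.3), robust, with TMM factors after filterByExpr and with Benjamini-Hochberg adjustment at 0.05 over 17693 genes. An SE is the absolute log2 fold change divided by the root of the F statistic. The common biological coefficient of variation was 0.105. Replicates differed by more than sampling noise (chi-square per degree of freedom 8.09 to 14.8). The steps were tested on simulated data.

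The members, the lists and the naming rule were chosen with earlier results of these data known. Named were all members, SOWAHA, genes overlapping a member, the 3 nearest profiles to SLC44A2 and CHKB, and up to 4 passing genes of each list by adjusted p (or its gene of highest mean CPM). Some genes that met this rule, with the result of 1 list, are not reported here. Promoter windows are from RefSeq and were found for 9 of 10 members. Motifs were searched in Python 3.11.15. Alternatives were other scaling factors, filters, tools (DESeq2 1.42.0, limma-voom 3.58.1), no robust step, thinned libraries, a replicate block and each library left out.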

Additional observations from a re-analysis of the deposited data

How the results depend on the processing

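Under 16 alternatives the 4 higher calls among the members (SLC44A1, SLC44A2, PCYT1A and CHPT1) and the 2 lower calls (CHKA and CHKB) were kept in every one. All alternatives drew on the same libraries, and the members were chosen with these data in view. The kept calls are therefore no separate support. The log2 fold change ran from 1.75 to 1.87 for SLC44A2 and from -0.93 to -0.88 for CHKB. SLC44A3 (-0.02 to 0.14) and SLC44A4 (-0.08 to 0.20) changed sign when single libraries were left out. Lower calls among the members numbered 2 to 4 with 1 library left out, 4 of them without siSOWAHA replicate 2, where CEPT1 and SLC44A5 were added. Without that library 1005 of 18150 genes tested were called lower. SOWAHA lay between -2.29 and -2.09.

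Lower calls in the wider lists were less stable: 6 in the fit reported, 3 with limma-voom, 3 with no robust step, and 1 to 3 with 1 library left out. The causes were not tested, and a fit with 1 library left out also has fewer libraries. Calls over all genes (2988) numbered 1978 to 2678 with 1 library left out, 1075 to 1453 of them higher (1614 with all) and 871 to 1225 lower (1374 with all). On FPKM values 2408 genes passed, against 1423 with no filter on low values and 1408 to 2020 with 1 library left out.

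The labels do not say that same-numbered libraries share a culture or day, so the numbers were not taken as pairs. Same-numbered libraries did not deviate together (correlations of -0.403, -0.105 and -0.066 over 11310 genes). Correlations of libraries with different numbers ran from -0.248 to 0.295. With the replicate block, 2599 of 17693 genes tested passed, 1416 of them higher and 1183 lower. Members stayed at 4 higher and 2 lower, and list genes stood at 7 higher and 4 lower.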

Other observations

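The authors' table annotates 9 of the 10 members to the KEGG pathway of choline metabolism in cancer and 5 to glycerophospholipid metabolism. Of the other genes so annotated, 67 and 74 were tested. Some are in both annotations and some are in the lists above, so these shares are not separate observations. Of the genes tested, 23.9% and 25.7% passed, beside 16.9% of all genes tested. In the choline annotation 9 of them were higher and 7 lower in siSOWAHA libraries, and in the glycerophospholipid annotation 10 higher and 9 lower. The genes named here are only some of these. They were chosen after their values were seen, and their adjusted p-values are edgeR's. Of the phospholipases A2, which cut phospholipids at the middle carbon of glycerol, PLA2G4F rose (2.32 ± 0.402 CPM in siSOWAHA libraries, 1.196 ± 0.125 in siNC libraries, adjusted p = 0.0129), PLA2G12A rose (41.2 ± 0.911 CPM in siSOWAHA libraries, 28.4 ± 2.95 in siNC libraries, adjusted p = 9.43e-05) and PLA2G4D fell (2.82 ± 0.536 CPM in siSOWAHA libraries, 6.30 ± 0.587 in siNC libraries, adjusted p = 0.000267), with SD over n = 3 libraries each.

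Of the diacylglycerol kinases, which turn diacylglycerol into phosphatidic acid, DGKE and DGKG rose (log2 fold change 0.24 each, adjusted p = 0.043 and 0.0488) and DGKQ fell (-0.37, adjusted p = 0.0135). TAFAZZIN, which remodels cardiolipin, fell (10.5 ± 0.915 CPM in siSOWAHA libraries, 14.3 ± 0.537 in siNC libraries, SD, n = 3 each, adjusted p = 0.00571). Of the signalling genes in the choline annotation, HIF1A fell (199.9 ± 6.53 CPM in siSOWAHA libraries, 251.7 ± 1.899 in siNC libraries, SD, n = 3 each, adjusted p = 6.03e-06) and NRAS and RAC1 rose by 0.24 and 0.19 on the log2 scale.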
